A study of Mus musculus with 9 samples.

Results

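Solute carriers are the membrane proteins that move phosphate, sugars, amino acids, ions, metals and cofactors across the plasma membrane and the membranes of organelles. They were followed here in OB-6, a bone marrow-derived mouse line of osteoblastic cells, before and after 30 and 60 min with parathyroid hormone (PTH). The members were all probe sets whose single platform gene symbol starts with Slc and a digit. That gave 185 of the 12488 probe sets on the array, for 151 of 8252 genes with such a probe set, and 1 further probe set that names several Slc genes was left out. Of the 185, 117 probe sets for 104 genes were bright enough to be tested, out of 7884 tested in all. The symbol rule also takes in 3 genes that are not carriers but were named after a carrier partner, Slc4a1ap, Slc9a3r1 and Slc9a3r2. All 9 arrays hold total RNA of the same line, with 3 arrays each, named replicates a, b and c, at 0 min (the basal level), 30 min and 60 min of PTH. The sources used here give neither the dose of PTH nor how the cells were kept, and no time-matched cells without PTH were analysed here. The labels do not say whether replicates came from separate cultures, so the spread behind each p-value may be that of technical repeats.

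PTH acts on osteoblasts mainly through a receptor coupled to cAMP and protein kinase A. In the kidney it lowers phosphate uptake by withdrawing sodium-phosphate carriers of the Slc34 family from the cell surface. Osteoblasts use Slc20 carriers for phosphate, Slc2 carriers for glucose, heterodimers of Slc3a2 with Slc7 light chains and sodium-coupled carriers for amino acids, and Slc23a2 for the ascorbate that collagen hydroxylation needs. Slc25 carriers exchange metabolites across the inner mitochondrial membrane, Slc35 carriers bring nucleotide sugars and other nucleotides into the Golgi and endoplasmic reticulum, Slc30 carriers remove zinc from the cytosol and Slc39 carriers bring it in.

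The deposited values are linear intensities, already scaled so that the trimmed mean was 250.1 or 250.2 on every array. Pairs of arrays correlated at 0.891 to 0.98 over the tested probe sets. The median was lowest for 60 min replicate b, at 0.938, and 0.954 to 0.967 for the remaining 8 arrays. Of 13 osteoblast markers 8 had a probe set and 7 were tested, namely Col1a1, Col1a2, Sparc, Bgn, Alpl, Ibsp and Omd, whereas the receptor gene Pth1r averaged an intensity of 15.7 at 0 min and was not tested. Within that list the brighter probe set of Col1a1 rose at 60 min (log2 fold change 0.56, limma adjusted p = 0.0499), though its 60 and 0 min arrays overlapped. The other Col1a1 probe set stood at 0.08 (limma adjusted p = 0.692). Omd fell at 60 min (-1.93, limma adjusted p = 0.0145). The summed intensity of the 8 skeletal muscle probe sets was 286 to 380 at 0 min, 420 to 448 at 30 min and 343 to 507 at 60 min, and 1 of them, Ckm, rose at 60 min (log2 fold change 0.86). That of the 4 endothelial probe sets was 29.3 to 45.3 at 0 min, 37.6 to 70.8 at 30 min and 81.1 to 95.3 at 60 min, with 0 of them tested. Sums were 887 to 964, 857 to 1015 and 802 to 870 for the 13 haematopoietic probe sets at 0, 30 and 60 min. Most of that sum was Ctsk, the osteoclast protease cathepsin K, at 599, 682 and 547 on average at 0, 30 and 60 min, while the leukocyte marker Ptprc stayed at or below 7.3 on average in each of its 3 probe sets. The sums were 185 to 189, 164 to 189 and 168 to 192 for 5 adipocyte probe sets, and 17.4 to 21, 20.4 to 59.5 and 33.4 to 41.2 for 3 chondrocyte probe sets. The part of these shifts in the results was not tested. In such bulk RNA, fewer cells that express a gene and less of its RNA per cell cannot be told apart.

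Few solute carrier transcripts passed the test within the first hour of PTH. At 30 min, 0 of 117 tested probe sets passed the threshold, a Benjamini-Hochberg adjusted p under 0.05 in limma's moderated test over all 7884 probe sets, where 0.939% of all tested probe sets passed. At an unadjusted p under 0.05 there were 12 members, or 10.3%, against 17.9% of all tested. For 33 members, or 28.2%, the 30 min arrays did not overlap the 0 min arrays, against 30.6% of all tested, with 24 above and 9 below, where each direction held 15.3% of all tested. At 60 min 9 members passed, 5 higher and 4 lower than at 0 min. That is 7.69% of the members, against 13.1% of all tested probe sets. Of all tested, 4.35% were higher and 8.73% lower. After cyclic loess the split of members was 2 higher and 4 lower, where 10.8% of all tested probe sets passed. Without the variance trend it was 2 higher and 5 lower, where 9.12% of all tested passed. Between 60 and 30 min 0 of 117 members passed, against 0.0254% of all tested. At an unadjusted p under 0.05 there were 8 members for this pair of times, or 6.84%, against 9.07% of all tested, and arrays did not overlap for 5 members above and 7 below, against 5.06% and 6.49% of all tested. The F test for any change over the 3 times passed for 3 members, Slc30a4, Slc1a2 and Slc25a36, or 2.56%, against 4.64% of all tested. At an unadjusted p under 0.05 this F test held 21 members, or 17.9%, against 26.3% of all tested. Array weights gave 24 members at 30 against 0 min, 25 at 60 against 0 min and 16 at 60 against 30 min, in a fit that called 30.2%, 31.7% and 10.6% of all tested probe sets.

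The 9 carriers past the threshold at 60 min serve mitochondria, zinc, nucleosides, the Golgi and glutamate. The risen ones were Slc25a25, Slc39a1, Slc25a39, Slc29a1 and Slc25a1, and the fallen ones were Slc25a36, Slc30a4, Slc1a2 and Slc35a1. For each of the 9, the 3 arrays at 60 min lay wholly above or wholly below the 3 at 0 min. Such separation was seen for 35 of the 117 members at 60 min, 25 above and 10 below. This is 29.9% of the members, against 40.7% of all tested probe sets. Of all tested, 20% were above and 20.7% below. Every call except that of Slc30a4 was lost in at least 1 fit with an array left out. The share of all tested probe sets called changed between these fits as well. Leaving out a 0 min array gave 1 call for replicate a, 1 for b and 3 for c, in fits that called 0.977%, 1.36% and 3.29% of all tested probe sets. With a 60 min array left out there were 14 calls for replicate a, 4 for b and 4 for c, where 20.1%, 6.7% and 8.19% of all tested passed. With a 30 min array left out there were 10, 10 and 6 calls for replicates a, b and c, where 15.6%, 13.5% and 8.78% of all tested passed. The fallen members had a median deviation from their 0 min mean of -1.51 on 60 min replicate b, and of -1.14 on both replicates a and c, on the log2 scale.

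**Figure D1:**
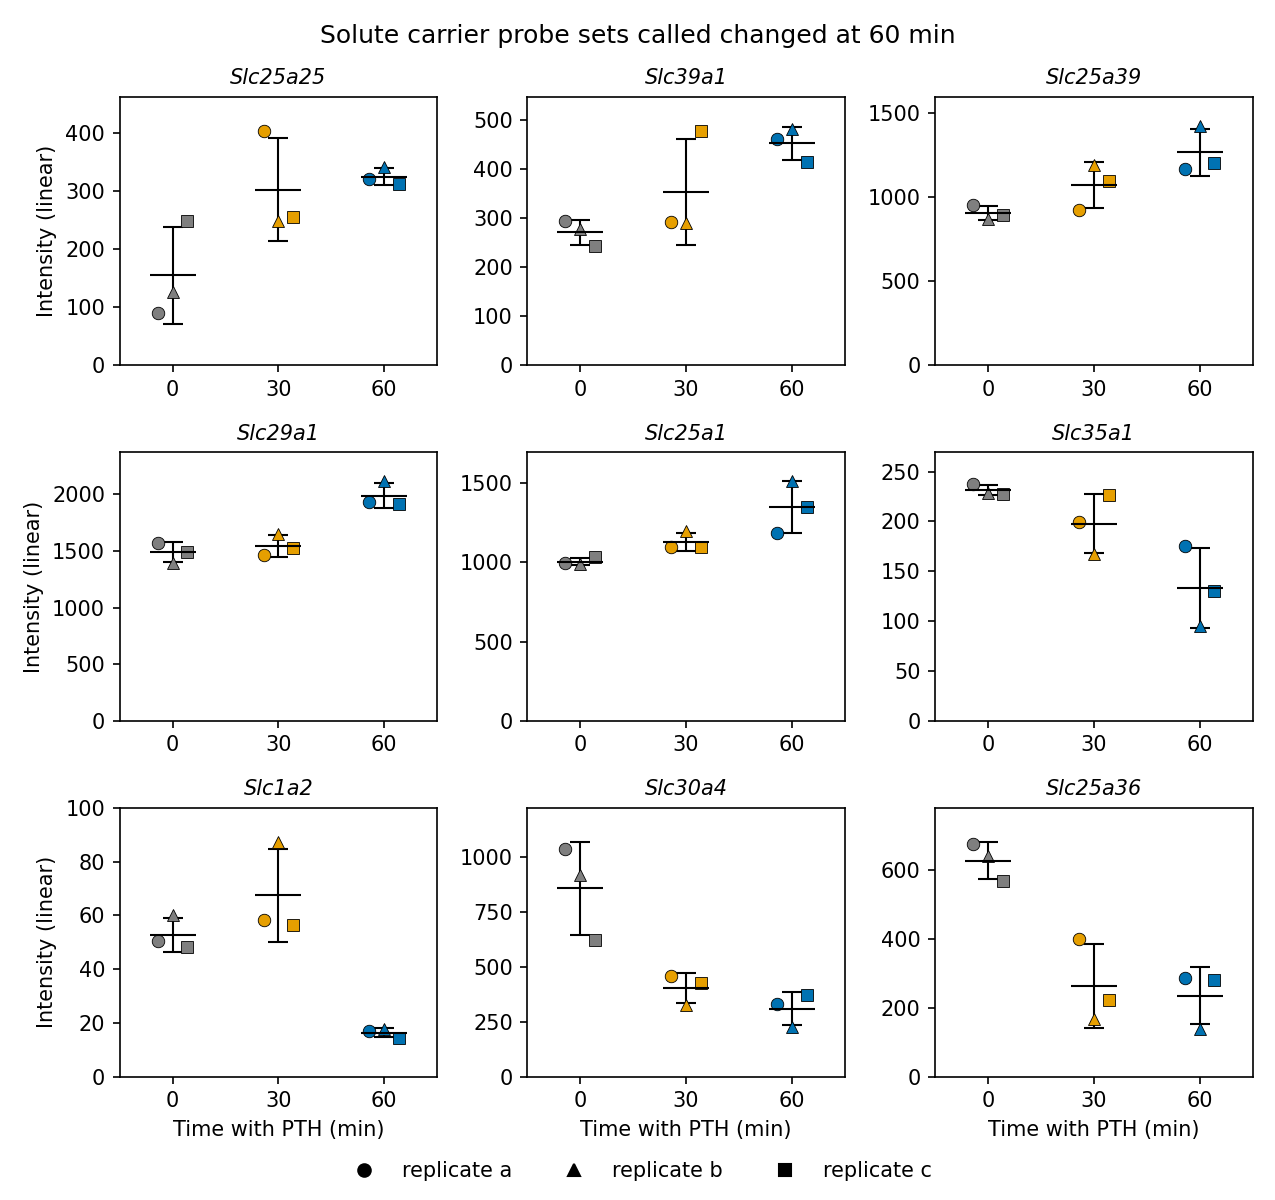
Linear intensity (y axis, from 0) of the 9 solute carrier probe sets called changed at 60 min, at 0, 30 and 60 min of PTH (x axis), with 1 point per array, a bar at the mean and whiskers of 1 SD (n = 3 arrays). In each panel the 60 min arrays lie wholly above or wholly below the 0 min arrays. On all 30 min arrays Slc25a36, Slc30a4 and Slc35a1 are already lower, and Slc25a25 and Slc25a1 already higher, than on any 0 min array.

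Mitochondrial carriers of the Slc25 family held 4 of the 9 calls. Of their 22 tested probe sets 3 rose and 1 fell at 60 min and 0 passed at 30 min. The 4 calls are 18.2% of the class, against 13.1% of all tested probe sets, and the 3 rises are 13.6%, against 4.35%. The class had a median log2 fold change of 0.26 at 60 min, against 0.03 over all tested probe sets, with 18 of 22 (81.8%) above 0, against 53.4% of all tested. Fold changes were all computed as differences of log2(intensity + 11.8), a scale on which dim probe sets appear to change less than they do, and intensities are those of the deposited table.

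Slc25a25 encodes a calcium-regulated carrier that exchanges ATP-magnesium for phosphate between the cytosol and the mitochondrial matrix, and it had the highest fitted log2 fold change of any tested member at 60 against 0 min. Its intensities were 89.5, 126 and 248 at 0 min, 404, 249 and 254 at 30 min and 320, 340 and 312 at 60 min for replicates a, b and c. The 3 basal arrays were widely spread, and the 30 and 60 min arrays all lay above them, though 30 min replicate b only just exceeded 0 min replicate c. It averaged 324 ± 14.6 at 60 min and 155 ± 83.2 at 0 min (SD, n = 3 arrays each). It rose 2.18-fold at 60 min, or 1.12 on the log2 scale, with a standard error (SE) of 0.30 (limma adjusted p = 0.0352). At 30 min the log2 fold change was 0.99 (SE 0.30, limma adjusted p = 0.132), and without 0 min replicate c it was 1.37 with a limma adjusted p of 0.0467. The call at 60 min was lost without 0 min replicates a or b, 30 min replicate c, or 60 min replicates b or c, without a filter on dim probe sets and without the variance trend.

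Slc25a36 encodes a carrier for pyrimidine nucleotides and had the lowest fitted log2 fold change of any tested member at 60 against 0 min. Its intensities were 673, 639 and 567 at 0 min, 400, 167 and 223 at 30 min and 285, 139 and 280 at 60 min. Every array with PTH lay below every basal array, at both times. At 30 min the log2 fold change was -1.30 (SE 0.31, limma adjusted p = 0.0795), and at 60 min it was -1.44 (SE 0.31, limma adjusted p = 0.0197). The 30 min value passed in a fit of the 2 times alone (0.0327) and with array weights (0.000194). It also passed with 30 min replicate a left out (0.0136), 60 min replicate b left out (0.0188) and the replicate letter as a block (0.0214). In that order, these fits called 4.93%, 30.2%, 3.89%, 7.06% and 3.29% of all tested probe sets at 30 min, against 0.939% as reported. Under the other settings tried the 30 min value fell short. The 60 min call was lost when any one 0 min array was left out, at a limma adjusted p of 0.0547 to 0.0806.

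Slc25a25 and Slc25a36 are also the only members whose promoter windows hold the palindromic cAMP response element TGACGTCA, the site bound by CREB, which cAMP signalling activates. Windows of 250 bases before to 50 after the annotated start, from RefSeq on build GRCm38.p6, were found for 124 of the 151 member genes. Of these genes 2, or 1.61%, hold the motif in at least 1 window, against 2.03% of 27025 genes with a window. The motif starts 150 bases before the start in 1 of 3 windows of Slc25a25 and 161 bases before it in the single window of Slc25a36. The 2 genes moved in opposite directions. The windows are shown with TGACGTCA in capitals, beside that of Slc30a4, the member with the smallest adjusted p at 60 min, which holds neither it nor the shorter TGACG.
Slc25a25, chr2:32424017-32424316, minus strand: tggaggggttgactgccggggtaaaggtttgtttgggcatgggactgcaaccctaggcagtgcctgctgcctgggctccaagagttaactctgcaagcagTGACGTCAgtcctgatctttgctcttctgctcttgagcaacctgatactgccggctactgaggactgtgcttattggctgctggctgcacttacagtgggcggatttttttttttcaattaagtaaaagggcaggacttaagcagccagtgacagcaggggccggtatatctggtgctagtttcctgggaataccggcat
Slc25a36, chr9:97110992-97111291, minus strand: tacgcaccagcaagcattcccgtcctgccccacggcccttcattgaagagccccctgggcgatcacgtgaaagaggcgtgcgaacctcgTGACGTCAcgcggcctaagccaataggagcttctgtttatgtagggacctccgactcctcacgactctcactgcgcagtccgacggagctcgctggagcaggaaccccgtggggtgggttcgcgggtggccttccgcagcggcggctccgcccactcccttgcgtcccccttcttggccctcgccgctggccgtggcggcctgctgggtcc
Slc30a4, chr2:122702614-122702913, minus strand: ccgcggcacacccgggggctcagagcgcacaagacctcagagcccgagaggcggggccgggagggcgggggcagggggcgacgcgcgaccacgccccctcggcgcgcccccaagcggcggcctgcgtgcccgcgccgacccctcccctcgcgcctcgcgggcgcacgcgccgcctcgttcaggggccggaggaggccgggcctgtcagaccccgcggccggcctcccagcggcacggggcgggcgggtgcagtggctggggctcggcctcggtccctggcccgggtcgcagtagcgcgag
The shorter motif TGACG, searched on both strands and contained in each full motif, was found in windows of 39 of the 124 member genes, or 31.5%, against 23% of all genes with a window. A gene can have several windows, and counted by window the motif was in 24.6% of 175 member windows, against 20.8% of all 32851. Among the 9 genes called at 60 min it was present in windows of Slc25a25, Slc25a36, Slc25a1, Slc29a1 and Slc39a1. For Slc25a25 and Slc25a36 it lay only within the full motif. In Slc25a1 it lay 6 bases after the start, and in Slc29a1 in a single window of several. The amino acid response element TGATGNAAT was found for Slc17a1 and Slc23a3, 1.61% of member genes against 1.08% of all genes. A match in these windows is a description of the sequence and shows no binding.

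Slc25a39, the mitochondrial glutathione carrier, and Slc25a1, the citrate carrier that supplies cytosolic acetyl-CoA, rose by smaller amounts. Slc25a39 read 949, 869 and 890 at 0 min, 923, 1191 and 1095 at 30 min and 1167, 1423 and 1204 at 60 min. Its 60 min arrays were all above the basal ones, while at 30 min replicate a was within the basal range. The change at 60 min was 0.48 on the log2 scale (SE 0.12, limma adjusted p = 0.0318). Slc25a1 read 995, 988 and 1032 at 0 min, 1096, 1198 and 1095 at 30 min and 1184, 1515 and 1349 at 60 min. All arrays with PTH lay above all basal arrays, and the log2 fold change at 60 min was 0.41 (SE 0.11, limma adjusted p = 0.0341). A second probe set of Slc25a1 stood at 0.23 (limma adjusted p = 0.356). Both calls were lost without any 0 min array, without 30 min replicate c, without 60 min replicates b or c, after cyclic loess and without the variance trend. That of Slc25a1 was also lost in a fit of the 2 times alone, at a limma adjusted p of 0.0505.

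The abundant ADP/ATP translocases, which export ATP from mitochondria, did not pass the threshold. Slc25a4 averaged 2759 ± 172 at 60 min and 2782 ± 91.8 at 0 min (SD, n = 3 each), with a log2 fold change of -0.01 and a 95% interval of -0.20 to 0.17. The brightest probe set of Slc25a5, of a type that can hybridise to several related sequences, stood at 0.32 (interval -0.02 to 0.67), and its 2 other probe sets at 0.27 and 0.21. The probe set at 0.27 was bright enough to be tested only through 30 and 60 min arrays. Slc25a3, the mitochondrial phosphate carrier, was dim and scattered. It read 31.5, 104 and 85.9 at 0 min, 136, 108 and 130 at 30 min and 82.1, 59.2 and 33 at 60 min. Its 30 min arrays lay above both other times, but the log2 fold change at 30 min was 0.78 with an interval of -0.02 to 1.59 and a limma adjusted p of 0.291, and at 60 min it was -0.24 (interval -1.04 to 0.57).

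Among metal carriers, 1 of 17 tested probe sets rose and 1 fell at 60 min, both for zinc. Together they are 11.8% of the class, against 13.1% of all tested probe sets. Slc30a4, which loads zinc from the cytosol into vesicles, read 1033, 917 and 623 at 0 min, 455, 327 and 425 at 30 min and 328, 227 and 372 at 60 min. Each array with PTH lay below the lowest basal array. It averaged 309 ± 74.1 at 60 min and 857 ± 212 at 0 min (SD, n = 3 arrays each). Its log2 fold change at 60 min was -1.43 (SE 0.22), with a limma adjusted p of 0.00767, the smallest of any member. Alone among the 9, its 60 min call was kept with any 1 array left out and under every other setting tried, at limma adjusted p of 0.000361 to 0.046. At 30 min the log2 fold change was -1.05 (SE 0.22), with a limma adjusted p of 0.0573. That value was 0.036 after quantile normalization, 0.0452 with the added constant at the 40th percentile and 0.045 after scaling to the 75th percentile. It was 0.0282 in a fit of the 2 times alone, 0.000922 with array weights and 0.0289 with the replicate letter as a block. With 30 min replicate a left out it was 0.04, and with 60 min replicate b left out 0.0165. These fits called 1.28% to 30.2% of all tested probe sets at 30 min, against 0.939% as reported. Under the other settings tried the 30 min change fell short. A second probe set of Slc30a4, at 5.5 to 24.3 over the 9 arrays, was too dim to test.

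Slc39a1, a zinc importer of the plasma membrane, read 294, 278 and 243 at 0 min, 292, 291 and 478 at 30 min and 461, 482 and 416 at 60 min. The 60 min arrays all lay above the basal ones, and at 30 min only replicate c did. It rose 1.64-fold at 60 min, or 0.72 on the log2 scale (SE 0.18, limma adjusted p = 0.0312), and leaving out any 0 min array, or 60 min replicates b or c, ended the call. Slc39a7, which releases zinc from the endoplasmic reticulum, stood at 0.10 (interval -0.10 to 0.31). Slc11a2, an iron carrier of endosomes and the plasma membrane, stood at 0.28 (interval 0.02 to 0.54, limma adjusted p = 0.13), with a second probe set at 0.17. The zinc exporter Slc30a1 was not tested, at 19.4 to 28.7 over the 9 arrays. The remaining metal carriers had log2 fold changes at 60 min between -0.48 and 0.53, and none passed.

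Phosphate carriers showed no change past the threshold. Slc20a1, the sodium-phosphate cotransporter Pit-1, was the only one of 5 phosphate carrier probe sets that was tested. Its intensities were 369, 358 and 329 at 0 min, 421, 393 and 373 at 30 min and 367, 302 and 357 at 60 min. The 30 min arrays lay above the basal arrays, replicate c by the least, and the 60 min arrays overlapped them. At 30 min the log2 fold change was 0.16, with a 95% interval of -0.10 to 0.43 and a limma adjusted p of 0.48. At 60 min it was -0.04, with an interval of -0.30 to 0.22. The renal and intestinal carriers Slc34a1 and Slc34a2 read 20.9 to 36 and 7.3 to 18.2 over the 9 arrays, below the limit of 44.69 on all of them.

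The sugar carrier families had 8 tested probe sets, of which 0 passed at either time. Of all tested probe sets, 0.939% passed at 30 min and 13.1% at 60 min. The 8 stood for 7 genes, among them Slc5a6, a vitamin carrier that shares a family number with sugar carriers. The class median was 0.21 at 30 min and 0.36 at 60 min, and 0.13 and 0.35 without Slc5a6. Slc2a1, the glucose transporter GLUT1, read 161, 184 and 129 at 0 min, 219, 187 and 177 at 30 min and 208, 142 and 207 at 60 min. The times overlapped, and the log2 fold change was 0.29 at 30 min (interval -0.11 to 0.69) and 0.21 at 60 min (interval -0.19 to 0.61). Slc2a3, the high-affinity glucose transporter GLUT3, was dim on every array. It read 22.4, 26.5 and 41.7 at 0 min, 56.2, 38.8 and 57.2 at 30 min and 59.4, 64.6 and 42.9 at 60 min. The 0 min arrays were all below the limit of 44.69, so this probe set, which counts in the class medians, passed the filter only through 30 and 60 min arrays. Its log2 fold change was 0.59 at 30 min and 0.70 at 60 min, with limma adjusted p of 0.267 and 0.0954, while a second, dimmer probe set stood at -0.16 and -0.27. Slc2a8, an intracellular glucose transporter, stood at 0.19 at 60 min (interval -0.09 to 0.48). Slc50a1, a sugar carrier of the SWEET family, stood at 0.35 (interval 0.04 to 0.66, limma adjusted p = 0.12). Insulin-responsive Slc2a4 was too dim to test, at 5.3 to 35.6.

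Amino acid and neurotransmitter carriers had 24 tested probe sets. None passed at 30 min, and Slc1a2 alone fell at 60 min, or 4.17% of the class, against 13.1% called among all tested. Slc1a2, a glutamate transporter best known from astrocytes, was a dim probe set. It read 50.5, 60.1 and 48.1 at 0 min, 58.4, 87.3 and 56.6 at 30 min and 16.9, 17.6 and 14.4 at 60 min. The 60 min arrays lay tightly together below both other times and below the limit of 44.69, so the probe set passed the filter only through the 0 and 30 min arrays. Its log2 fold change was 0.28 at 30 min (limma adjusted p = 0.542) and -1.20 at 60 min (SE 0.23, limma adjusted p = 0.0142), and -0.68 at 60 min with the added constant at the 40th percentile. The difference between 60 and 30 min was -1.48, with a limma adjusted p of 0.171, and 0.0242 without the variance trend. The 60 min call was lost without 0 min replicates a or b.

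The other amino acid carriers described here did not pass the test. Slc3a2, the heavy chain that brings several light chains to the cell surface, read 3032, 3189 and 3124 at 0 min, 3471, 2804 and 3106 at 30 min and 3418, 4946 and 2992 at 60 min. Only 60 min replicate b stood apart, and the log2 fold change at 60 min was 0.25 (interval -0.11 to 0.60). Its light chain partner Slc7a5, the leucine transporter LAT1, read 889, 924 and 847 at 0 min, 1034, 841 and 896 at 30 min and 896, 1111 and 1002 at 60 min. The times overlapped, with a log2 fold change of 0.05 at 30 min (interval -0.21 to 0.31) and 0.17 at 60 min (interval -0.09 to 0.43). Slc38a2, a sodium-coupled neutral amino acid carrier induced by amino acid starvation, read 1747, 1581 and 1452 at 0 min, 1412, 1384 and 1420 at 30 min and 1312, 1141 and 1479 at 60 min. All 30 min arrays lay below the basal ones, and at 60 min replicate c overlapped them. Its log2 fold change was -0.18 at 30 min and -0.28 at 60 min (interval -0.54 to -0.03, limma adjusted p = 0.119), and its 3 other probe sets were too dim to test.

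The serine and alanine carrier Slc1a4 stood at 0.10 at 60 min (interval -0.24 to 0.44) and the glutamine carrier Slc1a5 at -0.03 (interval -0.43 to 0.37). The taurine carrier Slc6a6 stood at -0.17 (interval -0.45 to 0.12), with a second probe set at -0.18, and the glycine carrier Slc6a9 at 0.18 (interval -0.12 to 0.48). The cationic amino acid carrier Slc7a2 stood at -0.32 (interval -0.73 to 0.09). Slc38a4, another sodium-coupled neutral amino acid carrier, had a log2 fold change of 0.61 at 30 min (interval 0.05 to 1.17, limma adjusted p = 0.242) and of 0.15 at 60 min. The glutamate carrier Slc1a1, the cationic carrier Slc7a1 and the cystine-glutamate exchanger Slc7a11 were not tested, with no array above 39.2.

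Nucleotide sugar and nucleotide carriers of the Golgi and endoplasmic reticulum had 1 of 10 tested probe sets lower at 60 min. That is 10%, against 8.73% lower among all tested probe sets. The fallen member was Slc35a1, which brings CMP-sialic acid into the Golgi for sialylation. It read 238, 229 and 228 at 0 min, 200, 167 and 227 at 30 min and 175, 94.9 and 130 at 60 min. The basal arrays were tight, and all arrays with PTH lay below them, 30 min replicate c only just. The log2 fold change was -0.22 at 30 min (limma adjusted p = 0.551) and -0.78 at 60 min (SE 0.20, limma adjusted p = 0.0296). The call was lost without any 0 min array, without 60 min replicates b or c, and with no filter on dim probe sets, and without 60 min replicate b the log2 fold change was -0.58. Slc35b2, which carries the sulphate donor PAPS into the Golgi, stood at 0.34 at 60 min (interval 0.05 to 0.62, limma adjusted p = 0.104), and passed without 60 min replicate a, at 0.0414. Slc35b1, a nucleotide carrier of the endoplasmic reticulum, stood at 0.20 (interval -0.06 to 0.46).

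Among inorganic ion carriers 0 of 11 tested probe sets passed, where 0.939% of all tested passed at 30 min and 13.1% at 60 min. Slc12a2, the sodium-potassium-chloride cotransporter NKCC1 that sets cell volume and chloride, read 599, 640 and 410 at 0 min, 488, 228 and 347 at 30 min and 382, 152 and 355 at 60 min. The 60 min arrays all lay below the basal ones, with replicate b lowest. At 60 min the log2 fold change was -0.94 with an interval of -1.71 to -0.18 and a limma adjusted p of 0.0929. The chloride-bicarbonate exchanger Slc4a2, which osteoclasts also use for acid secretion, stood at 0.08 (interval -0.16 to 0.32). The sodium-calcium exchanger Slc8a1 was not tested, with its brightest probe set at 3.8 to 38.3.

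The remaining 24 tested probe sets carry nucleosides, vitamins, lactate, fatty acids, choline, organic ions and other solutes, and 1 of them rose at 60 min. That is 4.17%, against 4.35% higher among all tested probe sets. The risen member was Slc29a1, the equilibrative nucleoside transporter ENT1, which read 1573, 1397 and 1493 at 0 min, 1460, 1649 and 1522 at 30 min and 1930, 2120 and 1919 at 60 min. The 60 min arrays lay above all arrays of both other times, which overlapped each other. It averaged 1990 ± 113 at 60 min and 1488 ± 88 at 0 min (SD, n = 3 arrays each). This is a rise of 0.42 on the log2 scale (SE 0.10, limma adjusted p = 0.0232). The call was lost without any 0 min array and after cyclic loess, and a second, dim probe set stood at -0.05 (limma adjusted p = 0.885). Slc23a2, the ascorbate transporter, read 1657, 1567 and 1620 at 0 min, 1405, 1333 and 1344 at 30 min and 1679, 1601 and 1611 at 60 min. All 30 min arrays lay below all arrays of both other times, yet the log2 fold change at 30 min was only -0.25 (interval -0.43 to -0.06), with a limma adjusted p of 0.175, and at 60 min it was 0.01 (interval -0.17 to 0.20). Slc16a1, the lactate and pyruvate carrier MCT1, stood at -0.35 at 60 min (interval -0.79 to 0.08).

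**Figure D2:**
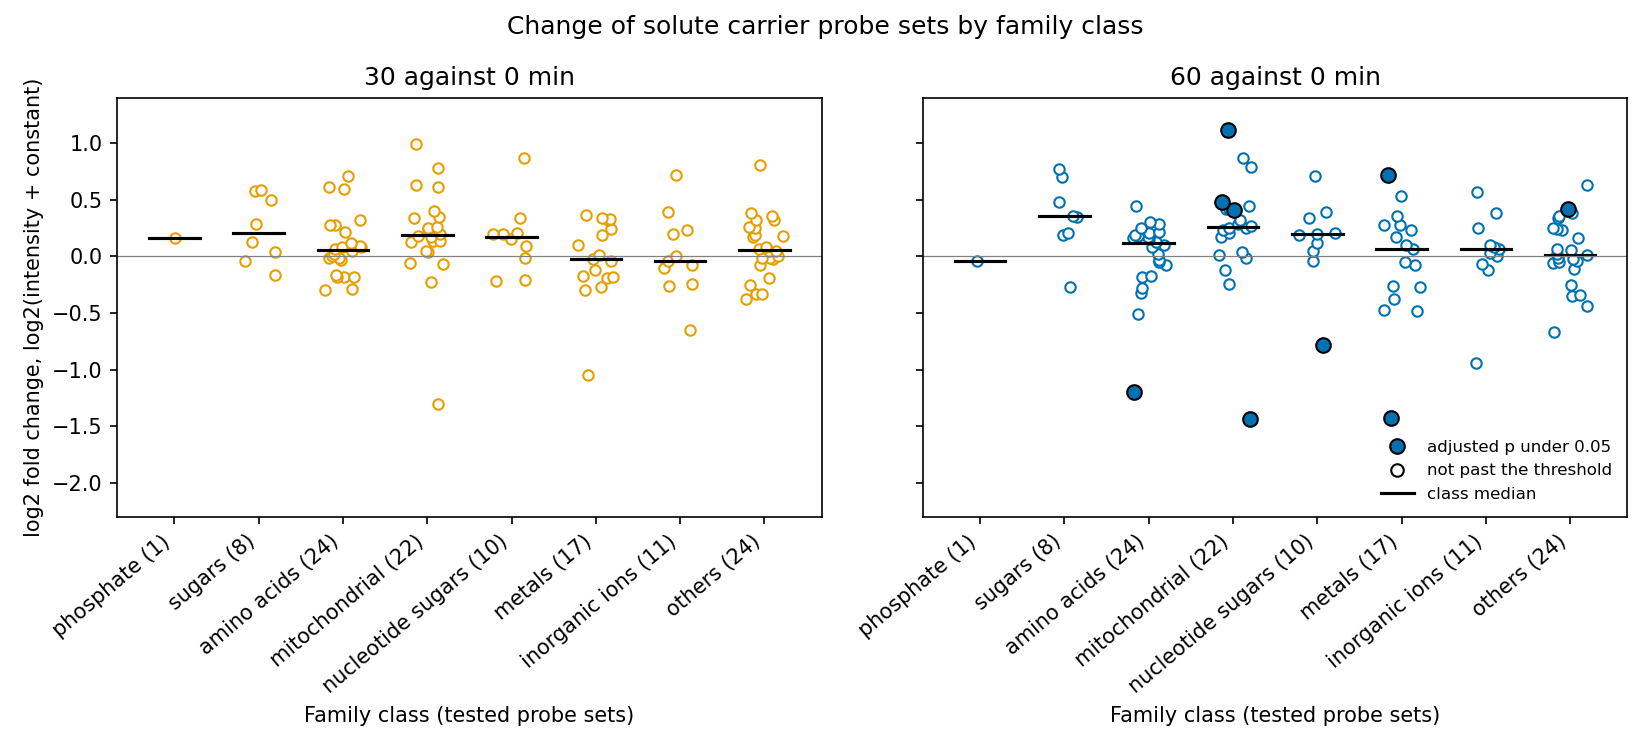
Log2 fold change (y axis) of the 117 tested solute carrier probe sets at 30 and 60 against 0 min, by family class (x axis, with the number tested), with filled points past the threshold, open points not past it and a line at the class median. No point is filled at 30 min, and at 60 min 9 are, 4 of them mitochondrial.

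Across the whole set, the members' log2 fold changes were spread less far below 0 than those of all tested probe sets. Their median was 0.09 at 30 min and 0.15 at 60 min, against 0.05 and 0.03 over all tested probe sets. At 60 min 66.7% of members were above 0, against 53.4% of all tested. The 10th percentile at 60 min was -0.35 for members and -0.74 for all tested, and the 90th percentile was 0.46 and 0.41. The median at 60 min was 0.13 to 0.20 after cyclic loess, quantile normalization or scaling to the 75th percentile, where that of all tested probe sets was 0.04 to 0.10. It was 0.08 without 60 min replicate b, where that of all tested was 0.01, and 0.06 with array weights or without a filter. The changes at 30 and 60 min share the 0 min arrays. Estimates were within 0.5 of 0 for 102 of 117 members (87.2%) at 30 min, against 85.5% of all tested. At 60 min this held for 100 of 117 (85.5%), against 77.9% of all tested. The whole 95% interval lay within 1 of 0 for 96 members at 30 min and 97 at 60 min. The median interval reached 0.39 to either side on the log2 scale, before any adjustment for the number of tests. With 3 arrays per time, much larger changes could miss the adjusted threshold. Slc25a36 did so at 30 min, with a log2 fold change of -1.30 (limma adjusted p = 0.0795).

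**Figure D3:**
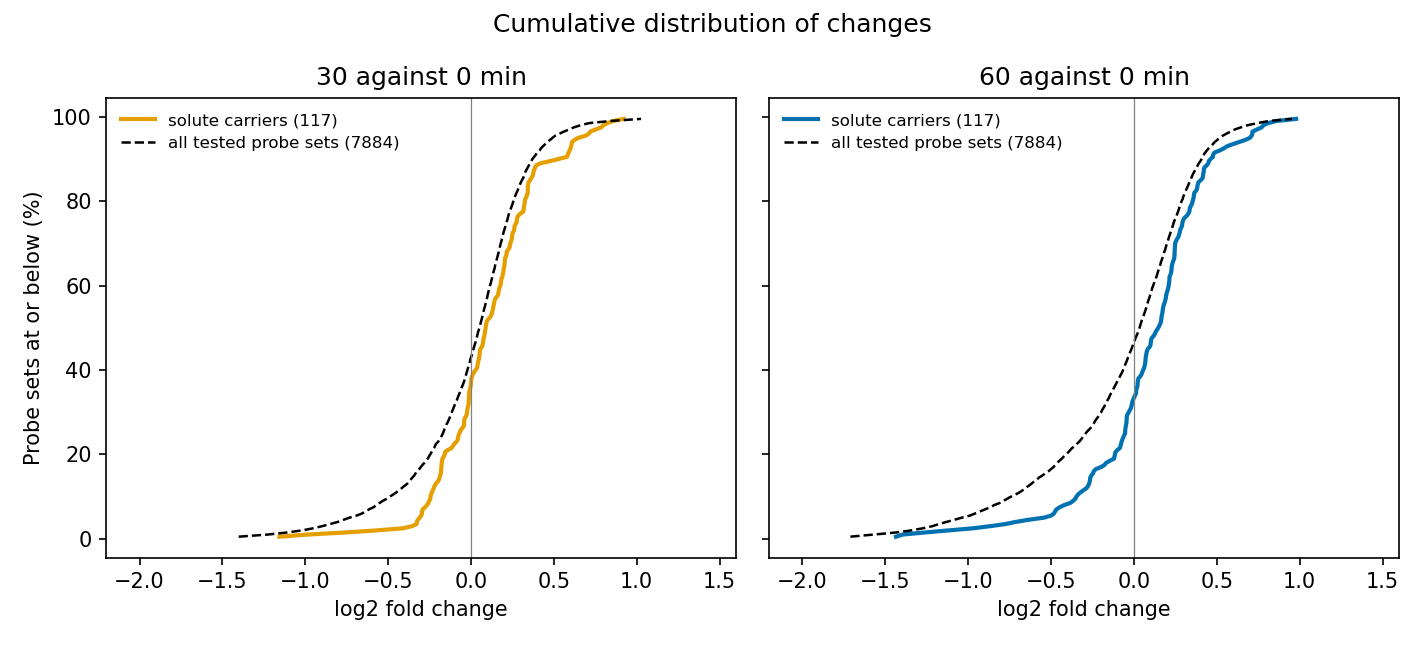
Share of probe sets (y axis, percent) at or below each log2 fold change (x axis) at 30 and 60 against 0 min, for the 117 tested solute carriers (solid) and all 7884 tested probe sets (dashed). At 60 min the carriers' lower tail is shorter, with a 10th percentile of -0.35, against -0.74 for all tested.

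**Figure D4:**
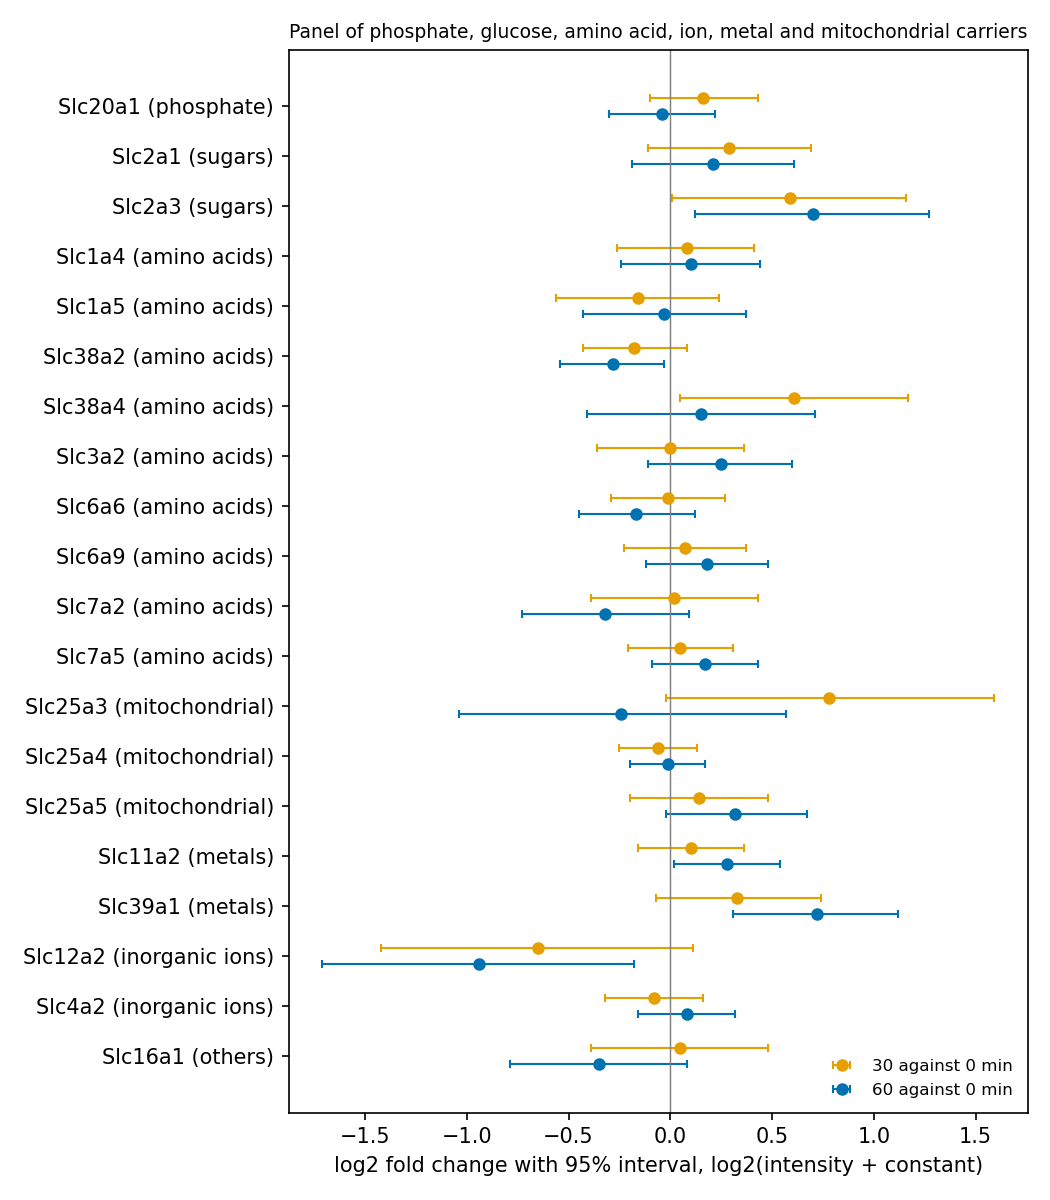
Log2 fold change with its 95% interval (x axis) at 30 and 60 against 0 min for the 20 tested genes of a panel of well-known carriers (y axis, with the family class). The interval of Slc39a1 at 60 min runs from 0.31 to 1.12, and Slc39a1 is the only one of the 20 past the adjusted threshold.

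Where a carrier gene had several probe sets, their signs were mostly alike. Of 29 such genes 12 had more than 1 tested probe set, and in 9 of these all had the same sign at 60 min. The exceptions were Slc29a1, Slc2a3 and Slc35e1. The 68 members that were not tested had mean intensities of 1.62 to 38.1, and 59 of them were below the limit on all 9 arrays. They are not shown to be absent from these cells.

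Other transport and metabolic genes were counted in the same way at 60 min, where 13.1% of all tested probe sets passed, 4.35% higher and 8.73% lower. Of 29 tested ion pump probe sets 1 rose and 4 fell (17.2% called), with the V-ATPase subunit gene Atp6v0b at a log2 fold change of 0.52, the copper pump gene Atp7a at -1.25 and -0.84 by 2 probe sets, the V-ATPase accessory gene Atp6ap2 at -0.87 and the Golgi calcium and manganese pump gene Atp2c1 at -0.90. Of 18 ABC transporter probe sets 1 rose (5.56% called), Abcb4, from a dim probe set at 76.1 at 60 min and 32.3 at 0 min. Its 0 min arrays read 28.2, 37.5 and 31.3, all below the limit for testing. The Abcb4 probe set therefore passed the filter only through 30 and 60 min arrays. Of 2 aquaporin probe sets 0 passed. Among 20 tested probe sets for the amino acid response and serine synthesis 5 rose and 1 fell (30% called, 25% higher). The risen ones were the serine synthesis genes Psat1 (0.48) and Psph (0.41), the tRNA synthetase genes Gars (0.45) and Wars (0.56, by 1 of 3 probe sets) and the transcription factor gene Cebpb (0.50), and the fallen one was Nupr1 (-0.71). Among 18 tested glycolysis probe sets 3 rose (16.7% called), Aldoa (0.71, while another probe set stood at 0.35), Ldha (0.52) and Tpi1 (0.38). In each of these lists 0 members passed at 30 min, and a difference between these lists and the solute carriers was not tested.

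**Figure D5:**
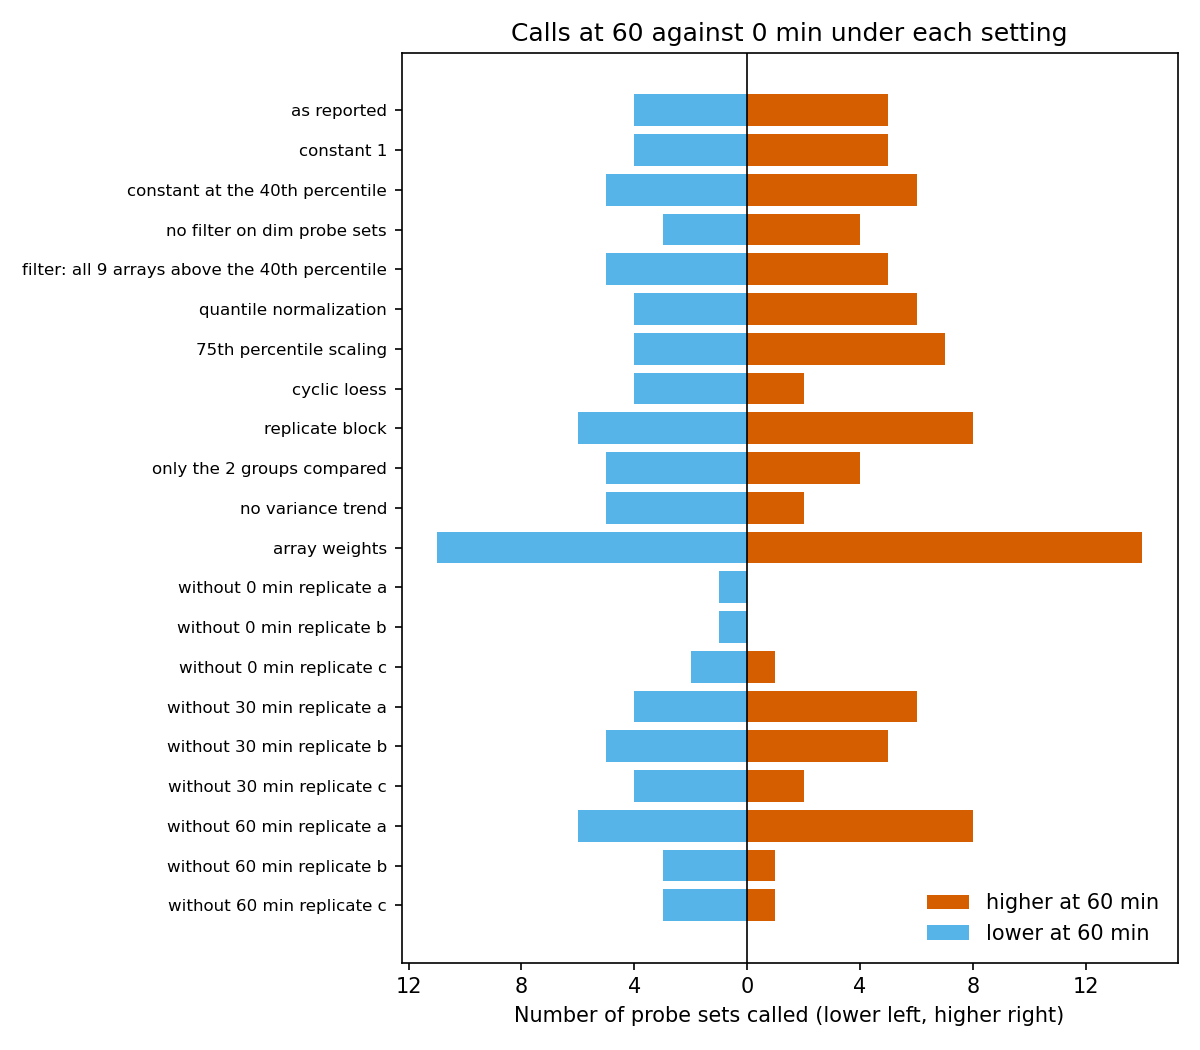
Number of solute carrier probe sets called at 60 against 0 min (x axis, lower to the left and higher to the right of 0) under each processing setting (y axis). The values as reported were 5 higher and 4 lower, array weights gave 14 and 11, and leaving out 0 min replicates a or b left 0 higher and 1 lower.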

How the data were processed

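The table deposited by the authors holds 1 linear intensity per probe set and array for 9 one-colour short-oligonucleotide arrays, from 0.1 to 8605.242. How the authors summarised and scaled the probes is not stated in any source used here. The trimmed means (2% off each end) were nearly equal, so the table was used as it stands, and the number of arrays limits the precision. Genes came from the platform annotation, and all 185 members matched an Entrez identifier of the GRCm38.p6 gene table with 0 symbols changed. The 20th percentile of all values, 11.8, was added to each intensity before taking log2. Probe sets with at least 3 of 9 arrays above 44.69, the 40th percentile, were tested, without the 66 control probe sets. A linear model of the 3 time means over 9 arrays (limma 3.58.1, R 4.3.3, variance trend, 6 residual and 4.68 prior degrees of freedom) gave p-values, adjusted over all tested probe sets. An exact permutation test of 3 arrays against 3 cannot give a p under 0.1. The fit was tested on simulated data.

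The members, lists and family classes (by family number) were chosen with earlier results of these data known. Named were all members past the threshold, the 2 brightest genes of each class and the measured genes of a panel of 32, in all 42 genes, each described by its brightest probe set. Classes follow family numbers, so the 3 genes that are not carriers count with inorganic ions. Deviations of same-lettered arrays from their group means correlated at -0.128 to 0.304 between times. Arrays of different letters were not compared in this way, so these values cannot decide whether the letters pair arrays. The main fit did not pair them, and a fit with the letter as a block is given beside it. Python 3.11.15 and matplotlib 3.10.9 drew the figures.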

Additional observations from a re-analysis of the deposited data

How the results depend on the processing

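Each value was recomputed under other constants, filters and scalings, without the variance trend, with array weights, with the replicate letter as a block, in fits of 2 times alone and with each array left out. No named member turned its direction while called. Over the named members and settings, 1943 values kept their side of the threshold, 44 fell short of it and 38 passed it anew. The 9 carriers called at 60 against 0 min became 14 with the replicate block, which included all 9, and 25 with array weights, and 1 to 14 with 1 array left out. For 30 against 0 min the count of 0 became 1 with the constant at the 40th percentile, after quantile normalization and after 75th percentile scaling, 2 with the replicate block and with the 2 groups alone, 24 with array weights and 0 to 2 with 1 array left out. In these fits 0.203% to 30.2% of all tested probe sets passed at 30 min. For 60 against 30 min the count of 0 became 1 without the variance trend, where 0.0254% of all tested passed, and 16 with array weights. It stayed 0 with any array left out. For any change over time 3 became 6 with the replicate block, 41 with array weights and 0 to 5 with 1 array left out. The replicate block called 3.29% of all tested probe sets at 30 min, 18.3% at 60 min and 10.6% in the F test. As reported, these shares were 0.939%, 13.1% and 4.64%. The replicate block passed Slc30a4 and Slc25a36 at 30 min, with adjusted p of 0.0289 and 0.0214, and Slc12a2 at 60 min, with 0.0454. The weights ran from 0.195 for 60 min replicate b to 3.79 for 30 min replicate c, in fits that called 10.6% to 42.6% of all tested probe sets, and the cause was not tested. The median log2 fold change at 30 min, 0.09, was 0.07 without a filter and after cyclic loess, 0.11 with array weights and 0.09 to 0.12 with 1 array left out.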
